A study of Mus musculus with 6 samples.

Results

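The transcripts described here are those of 37 genes of homologous recombination, the Fanconi anaemia pathway and the checkpoint kinases, picked by gene symbol from the 55367 gene names of a count table of mouse keratinocytes with or without iASPP. All 37 symbols were in the table, and all 37 had enough counts to be tested. iASPP, encoded by *Ppp1r13l*, is an inhibitor of the p53 family of transcription factors, and the study asked how gene expression changes in keratinocytes when it is lost. Ribosomal-RNA-depleted libraries were sequenced as single reads of 42 nt, with 3 libraries of each condition.

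Both conditions came from newborn mice of a mixed C57BL/6 and 129/Sv background with the genotype Ppp1r13l flox/flox;Cre+ERT, in which Cre is expressed from the Gt(ROSA)26Sor locus and becomes active with tamoxifen. This locus is active in most cell types, so recombination could also occur in cells other than keratinocytes. The primary skin keratinocytes of each batch were divided between 2 culture conditions after 24 h, and 1 part received tamoxifen, which deletes a loxP-flanked part of *Ppp1r13l* (iASPP KO), while the other received none (iASPP WT). The iASPP WT cultures therefore carried the same floxed alleles and the same Cre but had not met the drug. As a result, exposure to tamoxifen, active Cre and loss of iASPP cannot be told apart in any comparison below. Each of the 3 batches gave 1 library of each condition, and all tests compared KO with WT within batch. The sources do not state whether the batches came from separate litters, so the p-values measure the spread between these 3 pairs of cultures.

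Homologous recombination repairs broken DNA by copying an intact sister chromatid, and so works mainly in cells that have begun to replicate their DNA. Broken ends are trimmed by nucleases, BRCA1 and BRCA2 with their partners prepare the exposed strand for pairing, a set of cofactors helps that strand find and invade its template, and the BLM and MUS81 enzymes take the joined molecules apart. The Fanconi anaemia pathway clears crosslinks between the strands: a core complex attaches ubiquitin to FANCD2 and FANCI, which call in nucleases and recombination proteins, while the kinases ATM, ATR and CHK1 signal the damage and hold the cell cycle. In the epidermis, the dividing cells of the basal layer are where these genes are chiefly used.

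Library depth was 20202517 to 25157117 counts, and 3 counts corresponded to 0.123 to 0.140 CPM (counts of a gene per 1000000 counts of the library, scaled by edgeR's TMM factors). *Ppp1r13l* had 14.2, 17.7 and 5.90 CPM in the KO libraries of batches 1, 2 and 3 and 32.6, 45.1 and 21.0 CPM in the WT libraries, a log2 fold change of -1.45 (SE 0.18, adjusted p = 0.0030; here and throughout, from the quasi-likelihood test of edgeR adjusted over all tested genes after Benjamini and Hochberg). The keratinocyte markers *Krt14* and *Krt5* were present in every library, and the summed level of 8 keratinocyte markers was 21066 to 24242 CPM in KO and 21629 to 24192 CPM in WT. Batch 3 stood apart in both conditions: summed fibroblast markers were 471 CPM in its KO library and 697 CPM in its WT library, against 48.1 to 65.7 CPM in the 4 libraries of batches 1 and 2. For 33 of the 37 repair genes the highest KO library was that of batch 3, as was the highest WT library for 30, beside 41.0% and 39.7% of all tested genes. Their summed level was 424, 411 and 620 CPM in the KO libraries of batches 1, 2 and 3 and 624, 514 and 876 CPM in the WT libraries. Within each batch the KO sum was therefore the lower, although the KO sum of batch 3 was above the WT sum of batch 2.

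Most transcripts of this group had lower levels in iASPP KO keratinocytes, and a few of them passed the test gene by gene. Of the 37 genes, 4 had significantly lower expression in iASPP KO: *Rad54l*, *Chek1*, *Brip1* and *Rbbp8*. None was significantly higher by edgeR or by DESeq2, and no gene that was higher had an unadjusted p under 0.05 (8.66% of all tested genes were higher at that level). These 4 are 10.8% of the group, where 1.95% of the 14916 tested genes were significantly lower and 2.17% significantly higher. An unadjusted p under 0.05 was reached by 18 of the 37, all of them lower in KO, beside 8.09% of all tested genes that were lower at that level. The fitted log2 fold change was below 0 for 35 of the 37 (49.4% of all tested genes), with a median of -0.56 and a range of -1.47 to 0.30. The median over all tested genes was 0.01. The exceptions were *Mus81* and *Rad51d*.

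Within single batches, KO was below WT for 35 of the 37 genes in batch 1, 29 in batch 2 and 32 in batch 3, where about as many genes of the whole table were lower as higher (50.5%, 50.3% and 49.7% lower). Their median log2 difference was -0.80, -0.40 and -0.65 in the 3 batches. In all 3 batches KO was lower for 25 of the genes, beside 19.7% of all tested genes. Batch 3 was high in both conditions, and the KO and WT libraries taken without regard to batch overlapped for most genes. All KO libraries lay below all WT libraries for 5 of them, *Brip1*, *Brca2*, *Fancm*, *Fancb* and *Atr* (5.48% of all tested genes). *Mus81* was the 1 gene whose KO libraries all lay above its WT libraries (5.26% of all tested genes), and the 1 gene higher in KO within all 3 batches (19.5%). In these bulk cultures, fewer cells in a given state and less RNA per cell cannot be told apart.

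**Figure D1:**
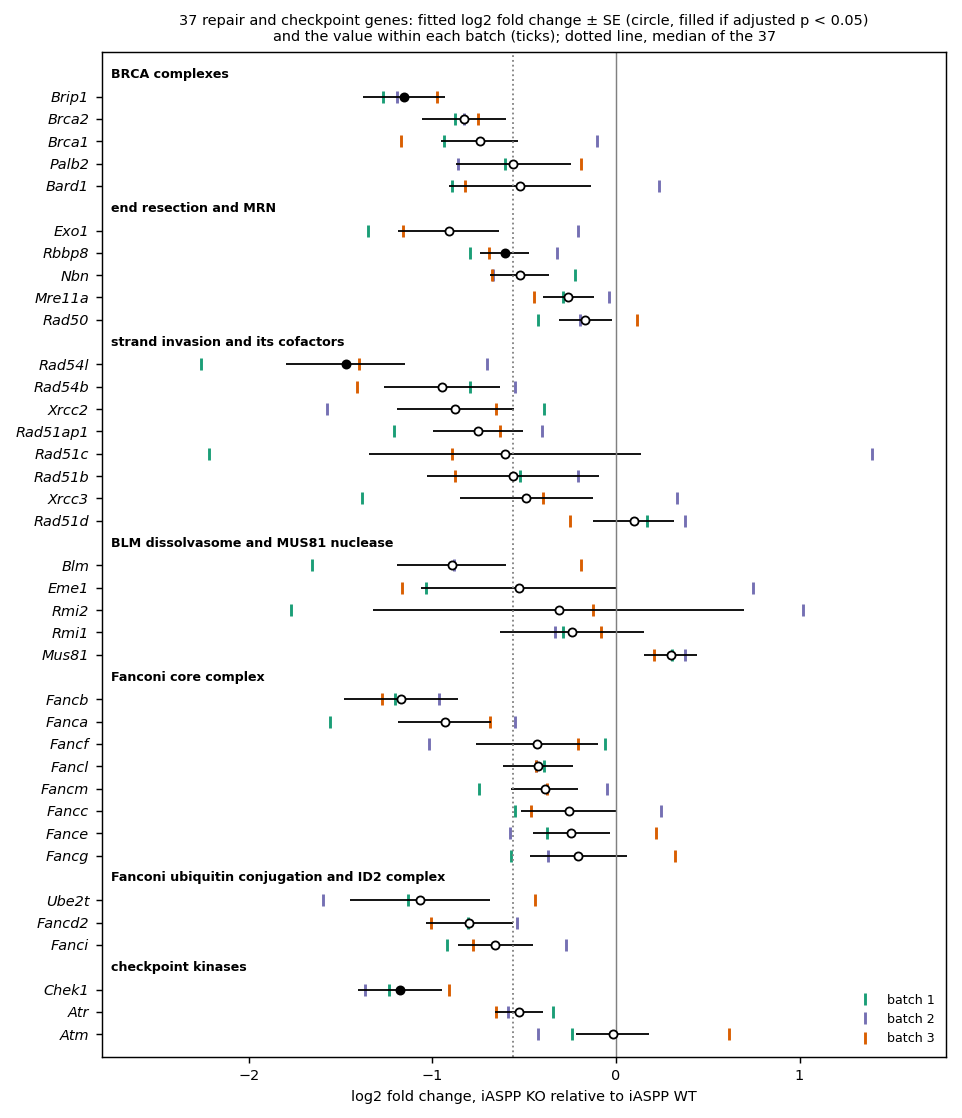
Fold change on the log2 scale, iASPP KO over iASPP WT, of each of the 37 genes by role: the circle is the fitted value with its SE (filled where the adjusted p is under 0.05), and the coloured ticks are the values within batches 1, 2 and 3. Of the circles, 35 lie left of 0 and 4 are filled, and the dotted line at -0.56 is the median of the group.

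The BRCA1 and BRCA2 complexes prepare the trimmed strand for pairing. Of the 5 genes, 1 was significantly lower, 3 were lower at an unadjusted p under 0.05, and their median log2 fold change was -0.74. *Brip1* (chr11:86058138-86201193, minus strand, mm10, GRCm38) encodes a helicase that binds BRCA1 and unwinds damaged templates. It had 5.34, 5.15 and 9.54 CPM in the KO libraries of batches 1, 2 and 3 and 13.0, 11.9 and 18.8 CPM in the WT libraries. Every KO library was below every WT library, and the KO mean was 45.8% of the WT mean. The log2 fold change was -1.15 (SE 0.22, n = 3 pairs, adjusted p = 0.0202), with batch values of -1.27, -1.19 and -0.98.

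*Brca1* (chr11:101488764-101551955, minus strand), whose product acts from end trimming onwards, had 14.1, 22.1 and 24.7 CPM in KO and 27.0, 23.8 and 55.7 CPM in WT. KO was lower within each batch but by only -0.10 on the log2 scale in batch 2, and its fitted value of -0.74 (SE 0.21) did not pass the test (adjusted p = 0.0855). *Brca2* (chr5:150522630-150570329, plus strand), which acts after trimming on the exposed strand, had 7.78, 4.66 and 8.06 CPM in KO and 14.4, 8.36 and 13.6 CPM in WT. The KO and WT libraries did not overlap and the batch values were close to each other, at -0.88, -0.83 and -0.75. Its fitted value was -0.83 (SE 0.23, adjusted p = 0.0777). *Palb2*, the bridge between BRCA1 and BRCA2, and *Bard1*, the partner of BRCA1 in its ubiquitin ligase, had values of -0.56 (adjusted p = 0.431) and -0.52 (adjusted p = 0.579), and for *Bard1* the KO library of batch 2 was above its WT library.

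Among the genes that trim or hold broken ends, 1 of 5 was significantly lower, 3 were lower at an unadjusted p under 0.05, and the median was -0.52. *Rbbp8* (chr18:11633276-11745221, plus strand) encodes CtIP, which starts end trimming. It had 41.7, 34.9 and 77.6 CPM in KO and 72.5, 43.6 and 126 CPM in WT, and the groups overlapped. Its log2 fold change was -0.61 (SE 0.13, adjusted p = 0.0346), the smallest of the 4 significant ones, with batch values of -0.80, -0.32 and -0.69. The SE was also the smallest of the 4.

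The 3 subunits of the MRN complex, the sensor of broken ends, did not pass the test. *Mre11a* (chr9:14784654-14837123, plus strand), the nuclease subunit, had 43.0, 36.6 and 47.7 CPM in KO and 52.5, 37.6 and 65.0 CPM in WT. The groups overlapped, and the log2 fold change was -0.26 (SE 0.14, 95% interval -0.56 to 0.05, adjusted p = 0.394). *Rad50* (chr11:53649519-53707319, minus strand), the ATPase that tethers the ends, had 37.5, 37.1 and 53.4 CPM in KO and 50.3, 42.4 and 49.3 CPM in WT. Here KO was the higher in batch 3, and the log2 fold change was -0.17 (SE 0.15, 95% interval -0.49 to 0.16, adjusted p = 0.653). *Nbn*, which recruits ATM, had a value of -0.52 (adjusted p = 0.115), and *Exo1*, the nuclease of long-range trimming, one of -0.91 (adjusted p = 0.109), and both were lower in KO in all 3 batches.

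The 8 genes of strand invasion and its cofactors held the gene with the most negative fold change of the 37. At an unadjusted p under 0.05, 4 of the 8 were lower in KO, and 1 was significantly lower after adjustment. *Rad54l* (chr4:116094264-116123690, minus strand) encodes RAD54, a motor protein that aids invasion of the template. It had 2.45, 3.36 and 7.08 CPM in KO and 12.1, 5.53 and 18.8 CPM in WT, and the KO library of batch 3 was above the WT library of batch 2. The KO mean was 35.4% of the WT mean, and the log2 fold change was -1.47 (SE 0.32, adjusted p = 0.0335) with batch values of -2.26, -0.70 and -1.40.

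Its relative *Rad54b* had a value of -0.95 (adjusted p = 0.150), but 35.8% of its exon bases are shared with *Fsbp* on the same strand, where reads cannot be given to either gene. *Rad51ap1*, which promotes strand pairing, and *Xrcc2*, which acts in the same step, were lower in KO in all 3 batches, with values of -0.75 (adjusted p = 0.143) and -0.87 (adjusted p = 0.190). The other genes of the same family act beside *Xrcc2*, and *Rad51b* had a value of -0.56, *Xrcc3* of -0.49, *Rad51c* of -0.60 and *Rad51d* of 0.10, with adjusted p of 0.583 to 0.883. *Rad51c* was thinly sampled, at 10, 56 and 69 counts in KO and 51, 22 and 124 counts in WT, and its batch values ran from -2.22 to 1.39. Its 95% interval of -2.25 to 1.04 spans both a fall and a rise, so no difference was detectable at this depth and spread. *Rad51d* was higher in KO in batches 1 and 2 (0.17 and 0.37) and lower in batch 3 (-0.25).

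None of the 5 genes that dissolve or cut joined molecules passed the test, 1 (*Blm*) had an unadjusted p under 0.05, and their median was -0.31. *Blm*, the helicase mutated in Bloom syndrome, had 3.20, 6.18 and 14.5 CPM in KO and 10.3, 11.5 and 16.6 CPM in WT. KO was lower in each batch, by as little as -0.19 in batch 3, and the fitted value was -0.89 (SE 0.29, adjusted p = 0.145). Its partners *Rmi1* and *Rmi2* had values of -0.24 and -0.31, and *Rmi2*, with 7 to 37 counts a library, had a 95% interval of -2.56 to 1.93 and could not be resolved.

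*Mus81* (chr19:5482345-5488402, minus strand), the catalytic subunit of a nuclease that cuts recombination intermediates, had higher levels in KO cultures. It had 36.0, 34.7 and 31.1 CPM in KO and 29.1, 26.7 and 26.9 CPM in WT, so that every KO library was above every WT library. The difference was small and similar in the 3 batches (0.31, 0.38 and 0.21), and the fitted log2 fold change of 0.30 (SE 0.15, 95% interval -0.03 to 0.62) did not pass the test (adjusted p = 0.345). *Eme1*, whose product forms the nuclease with MUS81, had a value of -0.53 (SE 0.53, adjusted p = 0.706).

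**Figure D2:**
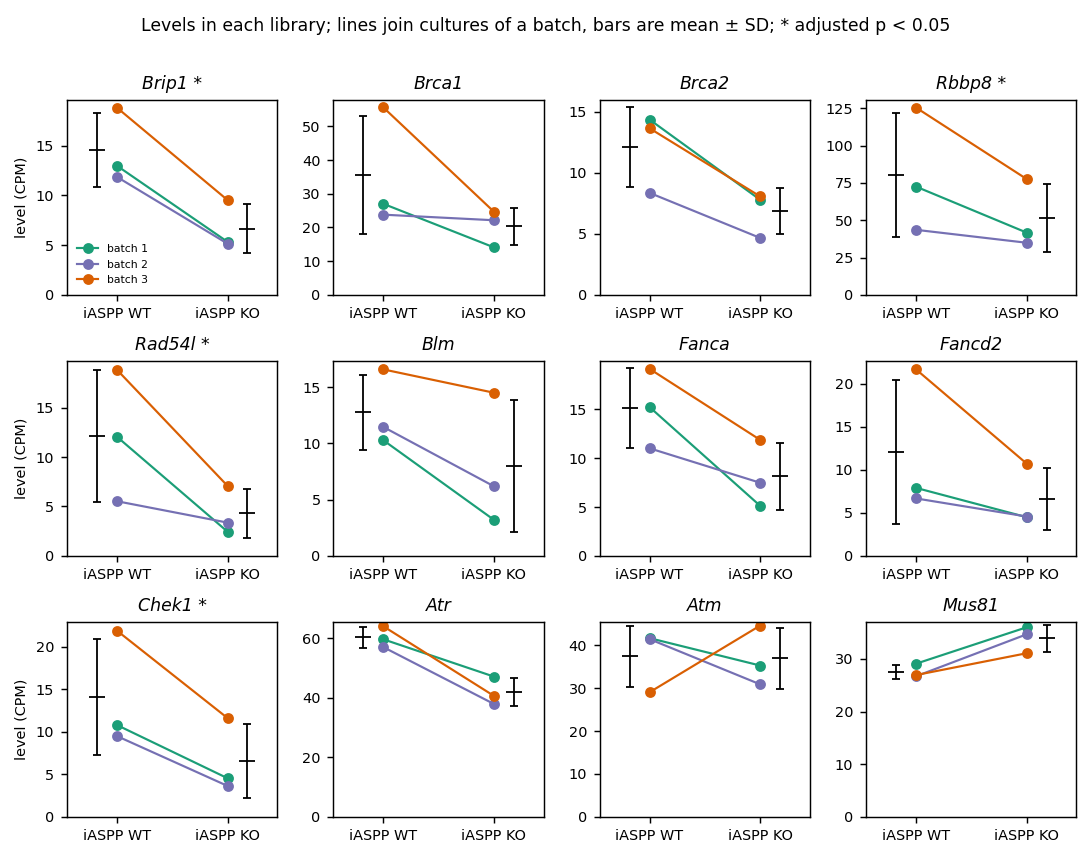
Level in CPM of 12 genes in each library, with lines joining the iASPP WT and iASPP KO cultures of a batch and bars giving the mean ± SD of 3 libraries (vertical axes from 0, a different scale in each panel). The line of batch 3 starts highest for *Brip1*, *Rbbp8*, *Rad54l* and *Chek1* and slopes down like those of batches 1 and 2, all 3 lines of *Mus81* slope up, and those of *Atm* cross.

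In the Fanconi core complex, which places ubiquitin on its substrates, all 8 genes had negative fold changes, with a median of -0.41. None passed the test, and 2 had an unadjusted p under 0.05 (8.09% of all tested genes were lower at that level). The most negative were *Fancb* (log2 fold change -1.17, SE 0.31, adjusted p = 0.0685), with 3.20, 2.33 and 4.03 CPM in KO and 7.48, 4.63 and 9.87 CPM in WT, and *Fanca* (-0.93, SE 0.25, adjusted p = 0.0754), with 5.11, 7.48 and 11.9 CPM in KO and 15.2, 11.0 and 19.2 CPM in WT. KO and WT libraries of *Fancb* did not overlap, and those of *Fanca* did. The ubiquitin ligase subunit *Fancl* and the helicase *Fancm*, which brings the complex to DNA, had values of -0.42 and -0.39 and were lower in all 3 batches. Values of *Fancc*, *Fance*, *Fancf* and *Fancg* lay between -0.43 and -0.21 with adjusted p of 0.599 to 0.775. *Fancc* was higher in KO in batch 2, and *Fance* and *Fancg* were higher in batch 3.

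The conjugating enzyme and its pair of substrates had a median of -0.80. All 3 had an unadjusted p under 0.05, and none passed after adjustment. *Fancd2* (chr6:113531682-113597017, plus strand), the substrate whose ubiquitin mark is the usual readout of the pathway, had 4.49, 4.57 and 10.7 CPM in KO and 7.90, 6.68 and 21.7 CPM in WT. Its log2 fold change was -0.80 (SE 0.24, adjusted p = 0.105). *Fanci* (chr7:79391929-79450264, plus strand), the partner with which it clamps DNA, had 6.27, 12.2 and 18.1 CPM in KO and 11.9, 14.7 and 31.0 CPM in WT, with a log2 fold change of -0.66 (SE 0.20, adjusted p = 0.120). For both genes the groups overlapped, while KO was lower in every batch. *Ube2t*, the conjugating enzyme, had a value of -1.07 (SE 0.38, adjusted p = 0.179) and was also lower in every batch.

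The 3 checkpoint kinases had unlike values. At an unadjusted p under 0.05, 2 of the 3 were lower in KO, and 1 was significantly lower after adjustment. *Chek1* (chr9:36708482-36727065, minus strand), the kinase that delays the cell cycle on a signal from ATR, had 4.54, 3.63 and 11.6 CPM in KO and 10.8, 9.50 and 21.9 CPM in WT. Its KO mean was 46.9% of the WT mean, and its log2 fold change was -1.18 (SE 0.23, adjusted p = 0.0215), with batch values of -1.24, -1.37 and -0.91. The groups overlapped only through the KO library of batch 3.

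*Atr* (chr9:95857597-95951781, plus strand), which responds to exposed strands at stalled forks, had 47.1, 37.9 and 40.6 CPM in KO and 59.6, 57.0 and 64.0 CPM in WT. Its groups did not overlap, and the log2 fold change of -0.53 (SE 0.13) had an adjusted p of 0.0535, just above the threshold. *Atm* (chr9:53439149-53536740, minus strand), which responds to broken ends, had 35.3, 30.9 and 44.7 CPM in KO and 41.7, 41.5 and 29.1 CPM in WT. KO was lower in batches 1 and 2 (-0.24 and -0.42) and higher in batch 3 (0.62), and the fitted value was -0.02 (SE 0.20, adjusted p = 0.979). The 95% interval of -0.46 to 0.42 still allows a moderate change in either direction.

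Which genes passed depended on the batches kept. With batch 1 left out none of the 37 was significantly lower (0.978% of all tested genes were), 14 had an unadjusted p under 0.05 for a lower level (5.56% of all tested genes), and the 4 genes had adjusted p of 0.0816 (*Brip1*), 0.200 (*Rbbp8*), 0.163 (*Rad54l*) and 0.0723 (*Chek1*). With batch 2 left out *Rad54l* stayed significant and *Brca1* joined it (0.768% of all tested genes). Leaving out batch 3 gave 8 significant genes (4.34% of all tested genes): the 4 and *Atr*, *Blm*, *Brca2* and *Fanca*. A fit without batch as a term (no pairing) called 0 of the 37 and 0.0% of all tested genes, with 6 of the 37 at an unadjusted p under 0.05, all lower in KO (2.22% of all tested genes). With the pairing and all batches, DESeq2 gave 7 of the 37 (3.38% of the genes to which it gave an adjusted p) and edgeR with no filter beyond 1 count gave 10 (1.54%). The 4 and *Atr* were significant under each of 4 other settings, DESeq2's size factors (2.19% of all tested genes), upper-quartile scaling (2.22%), a minimum of 10 counts in every library (2.64%) and a robust dispersion estimate (2.41%).

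Per length of exon, the levels of the 37 genes in WT cultures ran from 13.8 CPM per kb for *Nbn* to 0.22 CPM per kb for *Rmi2*. The MRN genes *Nbn*, *Rad50* (8.81) and *Mre11a* (8.72) came first, followed by *Mus81* (7.73) and *Rbbp8* (6.43), and the WT libraries of *Nbn* lay above those of *Rad50*, while those of *Rad50*, *Mre11a*, *Mus81* and *Rbbp8* each overlapped those of the next in this order. Towards the lower end were *Rmi1* (0.55), *Rad51c* (0.67), *Palb2* (0.84), *Rad51b* (0.85) and *Brca2* (0.89). Of the 37 genes, 15 had a WT mean under 10 CPM.

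**Figure D3:**
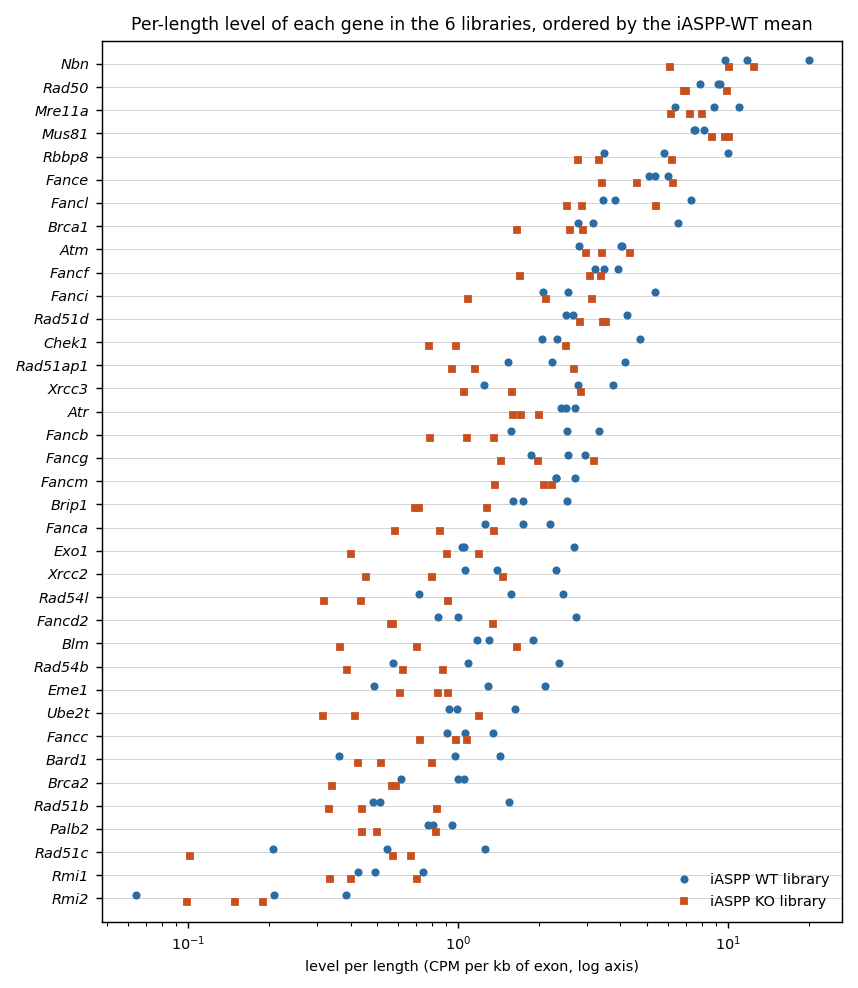
Level per length of exon (CPM per kb, log axis) of the 37 genes in the 3 iASPP WT (circles) and 3 iASPP KO libraries (squares), ordered by the WT mean from *Nbn* at 13.8 to *Rmi2* at 0.22. The squares and circles of a gene overlap for most of the 37. The mean KO level, which is not drawn, is below the mean WT level for 35 genes. *Mus81* is the gene with all squares to the right of its circles.

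The stretch before the transcription start was examined in the genes with a RefSeq promoter of the GRCm38.p6 assembly, which covered 28 of the 37 genes and 3 of the 4 significant ones. Each window held 250 bases before and 50 after the start. It was searched on both strands for the exact letters of 3 motifs that occur in genes switched on in dividing cells, though not only in these. They were an E2F form (TTTCCCGC, TTTGGCGC, TTTCGCGC or TTTGCCGC), the cell cycle homology region (CHR, TTTGAA) and the CCAAT box (CCAAT), and the letters of no motif contain those of another. The E2F letters were in 5 of the 28 genes (17.9%), namely *Bard1*, *Brca2*, *Fancg*, *Rad51c* and *Rmi1*, where 4.73% of 10565 tested genes and 2.60% of all 27025 genes with a promoter had them. CCAAT was in 18 of the 28 (64.3%), beside 42.9% of tested genes and 41.1% of all genes, and the CHR letters in 3 of the 28 (10.7%), beside 14.5% and 20.2%. Split by response, CCAAT was in 8 of the 12 genes with an unadjusted p under 0.05 and in 10 of the other 16, and the E2F letters in 1 of the 12 and 4 of the 16.

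The 250 bases before the start are shown for 2 of the significantly lower genes and for *Brca2*, the 1 gene with E2F letters among those with an unadjusted p under 0.05, to let the arrangements be compared. They are written 5′ to 3′ on the strand of the gene, with E2F letters and the CCAAT box, which reads ATTGG when it lies on the other strand, in capitals. The stretch of *Brip1* is the minus strand of chr11:86201194-86201443, that of *Rad54l* the minus strand of chr4:116123691-116123940, and that of *Brca2* the plus strand of chr5:150522371-150522620.
Brip1: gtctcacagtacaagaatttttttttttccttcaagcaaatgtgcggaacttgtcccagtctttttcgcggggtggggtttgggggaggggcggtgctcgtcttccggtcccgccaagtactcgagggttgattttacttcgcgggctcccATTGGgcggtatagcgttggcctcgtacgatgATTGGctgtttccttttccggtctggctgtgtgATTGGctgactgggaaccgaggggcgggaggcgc
Rad54l: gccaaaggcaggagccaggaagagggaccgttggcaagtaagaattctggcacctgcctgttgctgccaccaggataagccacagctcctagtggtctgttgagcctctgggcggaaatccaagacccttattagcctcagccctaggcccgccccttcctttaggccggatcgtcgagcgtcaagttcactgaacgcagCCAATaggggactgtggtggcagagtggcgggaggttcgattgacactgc
Brca2: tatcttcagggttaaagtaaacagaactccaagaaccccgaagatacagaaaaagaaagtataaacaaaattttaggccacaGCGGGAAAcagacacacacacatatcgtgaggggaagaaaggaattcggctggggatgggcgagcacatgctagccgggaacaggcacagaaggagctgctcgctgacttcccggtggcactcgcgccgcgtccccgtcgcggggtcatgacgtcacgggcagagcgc
*Brip1* held 3 CCAAT boxes, all in the reverse orientation, whose first bases lie at -99, -67 and -34 from the start. *Rad54l* held 1 in the forward orientation close to its start, and *Brca2* held none but had the E2F letters at -168 in the reverse orientation. The bases after the RefSeq start of *Brca2* were not found in an annotated transcript of the gene, unlike those of 30 of the 32 windows. Its position is therefore given from a start without that match. In the window of *Chek1* (chr9:36726609-36726908) none of the 3 motifs was found. That window lies inside the counted span of the gene, which begins on the minus strand at 36727065, so the bases before this position were not searched.

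Genes of the same pathways outside the 37 were read from a further list of recombination and Fanconi factors. Of its 46 tested genes, 30 had a negative fold change, and the median log2 fold change was -0.17 (range -1.56 to 1.09). At an unadjusted p under 0.05, 13 were lower and 1 higher, beside 8.09% and 8.66% of all tested genes. After adjustment 3 were significantly lower and none was significantly higher. The 3 were *Fignl1* (-1.18, adjusted p = 0.0127), an ATPase of recombination, *Mms22l* (-1.17, adjusted p = 0.0138), which acts at stalled forks, and *Rpa2* (-1.10, adjusted p = 0.0058), a subunit of the protein that coats exposed strands. *Rad52* had 8.58, 6.81 and 10.5 CPM in KO and 13.7, 15.6 and 12.05 CPM in WT, which did not overlap, with a value of -0.69 (SE 0.25, adjusted p = 0.185).

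The 22 checkpoint and chromatin genes that act beside the kinases had a median of -0.24. At an unadjusted p under 0.05, 7 were lower and 1 higher, beside 8.09% and 8.66% of all tested genes. After adjustment 3 were significantly lower and none higher. They were *Timeless* (-1.03, adjusted p = 0.0120), a fork protection factor, *Topbp1* (-0.63, adjusted p = 0.0164), the activator of ATR, and *H2ax* (-0.60, adjusted p = 0.0373), the histone phosphorylated around breaks. The other routes of DNA repair gave values for comparison. Non-homologous end joining, the alternative route for broken ends, had none of 10 genes significantly changed and a median of -0.07, and nucleotide excision repair none of 19 and a median of 0.06. By edgeR, no gene of these 2 lists had an unadjusted p under 0.05 for a lower level in KO, and 1 gene of excision repair had it for a higher level. Mismatch repair had 1 of 7 genes significantly lower, all 7 with a negative fold change, and a median of -0.54. Of these 7, 5 had an unadjusted p under 0.05, all of them lower in KO. Base excision repair had 1 of 20 significantly lower (*Fen1*, -0.70, adjusted p = 0.0166) and a median of -0.10. At an unadjusted p under 0.05, 3 of the 20 were lower and none higher. Whether the 37 genes differ from these lists as groups was not tested.

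Genes of the dividing cell were lower in KO beside them. Of 20 genes of S phase, 12 were significantly lower, and the median of the 20 was -0.75. Among these 12, the most negative values were those of *Cdc6*, *Ccne1*, *Cdc45* and *Mcm6*. Of 20 genes of G2 and mitosis, 18 were significantly lower, and the median of the 20 was -1.28. Among these 18, *Cdc20*, *Ccna2*, *Aurka* and *Nusap1* had the most negative values. None of the 40 was significantly higher. Summed S phase genes were at 499 to 756 CPM in KO and 715 to 1341 CPM in WT, and summed G2 and mitosis genes at 250 to 947 CPM in KO and 616 to 1709 CPM in WT. As for the 37 repair genes, the highest library of each condition was that of batch 3. The part of dividing cells in the levels of the repair transcripts was not tested.

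**Figure D4:**
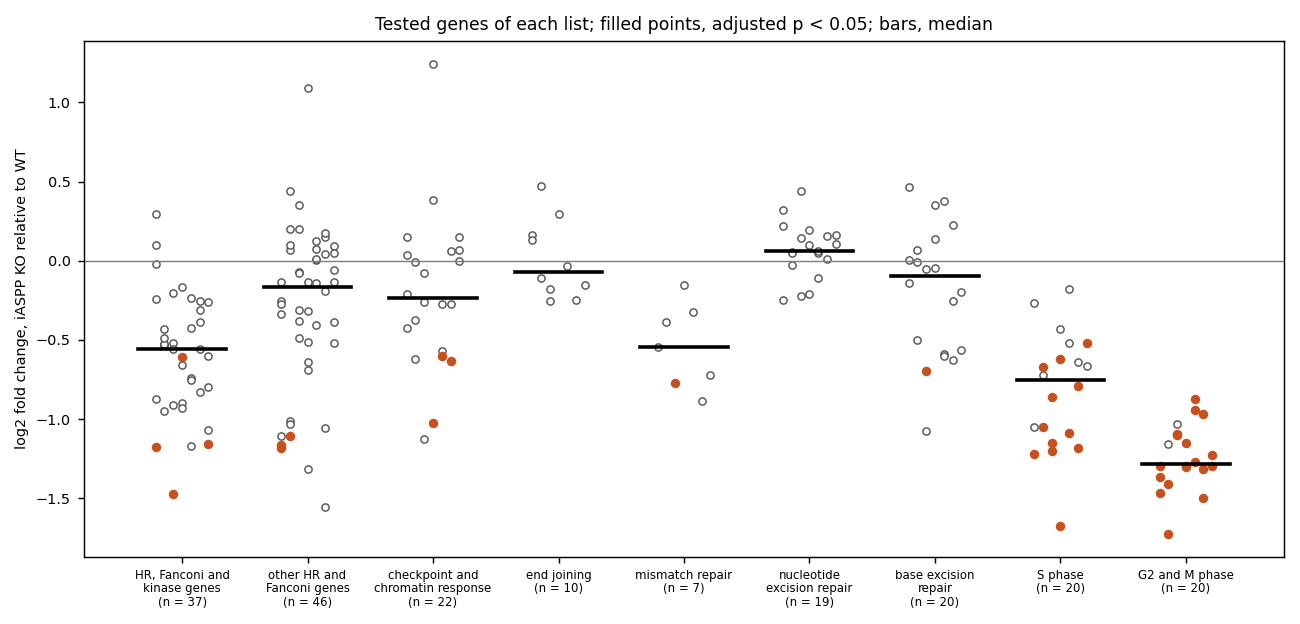
Fold change on the log2 scale, iASPP KO over iASPP WT, of each tested gene of 9 lists (points, filled where the adjusted p is under 0.05) with the median of each list (bar). The 37 recombination, Fanconi and kinase genes have a median of -0.56, against -0.54 for mismatch repair, -0.24 for checkpoint and chromatin genes, -0.17 for the other recombination and Fanconi genes, -0.10 for base excision repair, -0.07 for end joining, 0.06 for nucleotide excision repair, -0.75 for S phase and -1.28 for G2 and mitosis.

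Markers of other cells that skin cultures can hold gave the following levels. Of 8 fibroblast markers, 2 were significantly lower in KO (*Col1a2* and *Col3a1*). Another 1 was higher at an unadjusted p under 0.05 and did not pass after adjustment. The sum of the 8 was 49.6, 65.7 and 471 CPM in the KO libraries of batches 1, 2 and 3. In the WT libraries it was 48.1, 58.7 and 697 CPM, so the KO sum was the lower only in batch 3. Of 8 leukocyte and macrophage markers, 4 could be tested, and all 4 had a positive fold change (0.16 to 1.46, median 0.85). At an unadjusted p under 0.05, 2 were higher in KO and none lower, and *Csf1r* was significantly higher after adjustment. The sum was 24.8 to 69.9 CPM in KO and 13.8 to 54.5 CPM in WT, and *Cd3e*, which defines T cells, was at 0 in all libraries. Endothelial markers summed to 3.01 to 13.0 CPM in KO and 3.74 to 7.17 CPM in WT, melanocyte markers to 394 to 1034 CPM and 341 to 1086 CPM, and no gene of these 2 lists was significantly changed or had an unadjusted p under 0.05. Of the 8 keratinocyte markers, 7 had a negative fold change and the median was -0.13. *Krt10*, a keratin of differentiating cells, was significantly lower in KO. The highest value of the 8 was 0.62, and 1 marker was higher in KO at an unadjusted p under 0.05 but did not pass after adjustment. The study itself reported increased expression of *Ivl*, a differentiation gene among these 8, in KO. The part of these cells in the levels of the 37 genes was not tested.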

How the data were processed

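Bulk RNA-seq of 3 iASPP KO and 3 iASPP WT keratinocyte cultures was analysed. Per the labels and the study's methods, the authors trimmed reads (Cutadapt), aligned them to mm10 with STAR and assigned them by strand to exons of GENCODE genes with featureCounts 2.0.0; the deposited values are raw counts per gene name, and exon bases shared by genes on 1 strand are not assigned. The authors' table of their own comparison, which holds fold changes and p-values, was not used. The labels give the tamoxifen dose as 1 mM, while the study's methods give it in micromolar.

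From the counts, edgeR 4.0.16 in R 4.3.3 (filterByExpr, TMM, batch and condition as terms, glmQLFit and glmQLFTest) tested 14916 genes, with Benjamini-Hochberg adjustment over all of them and a threshold of 0.05. The SE is the log2 fold change divided by the square root of F, and 95% intervals use the moderated degrees of freedom. Batch values compare log2 CPM after adding a prior count of 2. Depth was 20202517 to 25157117 counts; 3 counts, taken as the detection floor, were 0.123 to 0.140 CPM on the TMM scale, which covers counting error only. The labels' replicate number is the batch, whose cells were divided between the conditions: deviations of same-batch libraries from the condition means correlated at 0.302, 0.368 and 0.568, those of other pairs at -0.427 to 0.179. No 2 libraries of a condition agreed within sampling noise.

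The 37 genes and all lists were chosen with earlier results of these data known. Full statistics were given for significant members, for 9 named genes (*Brca1*, *Brca2*, *Fancd2*, *Fanci*, *Rad50*, *Mre11a*, *Atm*, *Atr* and *Chek1*) and for any member higher in all batches; from other lists, for up to 4 significant genes. *Blm*, *Fanca*, *Fancb* and the thinly counted genes were added after their values were seen. Promoter sequences are from RefSeq (GRCm38.p6). The script was tested on simulated data. Alternatives were DESeq2 1.42.0, 2 other scalings, 2 other filters, a robust fit, no batch term and each batch left out. Some results on genes of the other lists are not reported here.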

Additional observations from a re-analysis of the deposited data

How the results depend on the processing

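The fit with batch as a term was compared with 1 without this replicate block, with DESeq2, with other scalings, filters and dispersion estimates, and with each batch left out. Without the replicate block no gene was significantly lower or higher (0 and 0 of 14916), so the counts for the 37 genes (4 with the block), the other recombination and Fanconi genes (3) and the other repair lists (5) all became 0; the 37 still held 6 genes at an unadjusted p under 0.05, and 35 negative values. DESeq2 gave 7 of the 37 (adding *Atr*, *Brca1* and *Fanca*) and, in the other repair lists, 8 lower and 1 higher. With no filter beyond 1 count, 491 genes were lower and 624 higher, 10 of the 37, 5 of the other recombination genes and 8 of the other repair lists were lower, and 1 of those lists was higher, as 1 was in the robust fit. With DESeq2's size factors, upper-quartile scaling, at least 10 counts in every library or the robust fit, 5 of the 37 were lower: the 4 and *Atr*. The filter of 10 counts left 36 of the 37 to be tested, without *Rmi2*, to which DESeq2 gave no adjusted p. Leaving out 1 batch at a time gave 117 to 662 genes lower and 169 to 793 higher, 0 to 8 of the 37, 2 to 5 of the other recombination genes, 1 to 12 lower and 0 to 2 higher in the other repair lists, and a median over the 37 of -0.79 to -0.52. With 1 batch left out the value changed sign for *Rad51c* (-1.57 to 0.23) and *Rmi2* (-1.03 to 0.52), positive without batch 1, for *Rad51d* (-0.038 to 0.28), negative without batch 2, and for *Atm* (-0.33 to 0.19), positive without batch 1 (0.10) or batch 2. The cause of these shifts was not tested. Over all alternatives adjusted p ran from 0.00056 to 0.973 for *Brip1*, 0.0013 to 0.973 for *Rbbp8*, 7.1e-05 to 0.973 for *Rad54l* and 0.00056 to 0.973 for *Chek1*, the upper value being that without the block; each kept a negative fold change throughout. The 3 pairs of cultures leave 2 residual degrees of freedom, and genes at few counts a library, such as *Rmi2* and *Rad51c*, could not be resolved.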
